A study of Mus musculus with 6 samples.

Results

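Cathepsins are proteases that work inside lysosomes, the acidic compartments in which cells break down proteins. The 9 cathepsins in this account are described here together with cystatin C, an inhibitor of cathepsins, in the cochlea of young and old mice. The 10 genes were taken by name from 25823 genes, by a rule that uses no measured value. The choice was made with earlier results of these data known. They are Ctsa, Ctsb, Ctsc, Ctsd, Ctsf, Ctsh, Ctsl, Ctss, Ctsz and the cystatin C gene Cst3, and all 10 were in the table and entered the test. The study compared C57BL/6 mice aged 1 month with C57BL/6 mice aged 12 months to model the loss of hearing with age, and the labels name no treatment or allele in either group. Each group had 3 samples, and each sample held the mixed tissue of 3 mice, so that the spread between samples is a spread between pools. The tissue was the basilar membrane, dissected out of the cochlea. Values are FPKM (fragments per kilobase of transcript, scaled to the sequencing depth of the library) as computed by the authors, summed over the transcripts of a gene. FPKM is a value per length, so that levels of different genes can be set side by side.

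Most cathepsins are cysteine proteases of the papain family, while cathepsin D is an aspartic protease and cathepsin A a serine carboxypeptidase. They are made as inactive proenzymes, carried to the lysosome mainly by mannose-6-phosphate receptors and activated there. Cystatin C is secreted and blocks cysteine cathepsins by sitting in their active site cleft, and it does not inhibit cathepsin D or A. Some cathepsins are found in nearly every cell, whereas cathepsin S is known from macrophages, microglia and other antigen-presenting cells. In such cells it trims the invariant chain from MHC class II molecules. In the ear, as in other tissues, macrophages reside among the other cell types, and a bulk sample gives 1 value for all of them. More cells of a type and more RNA per cell cannot be told apart in these data.

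The most abundant markers of the cochlea were well detected. Gjb6 and Gjb2, the connexins of supporting cells, were at 643 ± 37.6 and 361 ± 32.1 FPKM (SD, n = 3) in young mice, and the hair cell genes Calb2 and Ocm at 703 ± 176 and 135 ± 41.0 FPKM. The other hair cell markers were far lower in young mice, from 6.80 FPKM for Otof down to 1.82 FPKM for Gfi1. The lowest supporting cell marker, Tecta, was at 0.115 FPKM. Gfi1 and Tecta were named after their values were seen. Young replicate 1 stood apart in the markers of marrow and bone. The summed level of 10 neutrophil genes was 445 FPKM there and 12.2 to 86.1 FPKM in the other samples, and that of 9 osteoblast genes was 429.9 FPKM there and 84.0 to 239 FPKM in the others. The counts of called genes, and the changes of the called genes among the 10, are therefore also given without it. Its estimated depth was not unusual: the steps between low FPKM values correspond to between 12530000 and 15480000 fragments per sample, within an upper limit set for the search.

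Of the 10 genes, 4 rose with age, Ctss, Ctsb, Ctsz and Ctsd, and 0 passed the test as lower. Ctss, the gene of cathepsin S, stood out with a 4.24-fold higher mean in old mice, while the other 3 rose 1.30-fold to 1.57-fold. Ctsc and Ctsf just missed the threshold, in opposite directions, and Ctsa, Ctsh, Ctsl and Cst3 did not pass it. The test was limma on log2(FPKM + 0.1) over all 19649 genes with a mean of at least 0.1 FPKM, two-sided, with the Benjamini-Hochberg adjustment over all of them and a threshold of 0.05. Over all genes tested, 5.41% were called higher and 3.68% lower in old mice, or 9.09% in either direction. Among the 7198 genes at least as abundant as Ctsc, 13.4% were called in either direction and 8.54% as higher. Without adjustment, 5 of the 10 genes were higher and 2 lower at a p below 0.05. The share of all genes at an unadjusted p below 0.05 was not counted, here or in the other fits and lists. Such counts therefore cannot be read as particular to the genes they cover. The median log2 change was 0.29 over the 10 genes and 0.01 over all genes tested. The groups did not overlap for 6 of the 10 genes (33.5% of all genes tested). Of these, 5 were higher in every old sample (17.5% of all genes tested), and 1, Ctsf, was lower in every old sample (16.0% of all genes tested). With all samples kept, 2 of the 10 were called without the filter on low values and 2 without the variance trend. Without young replicate 1, 3 of the 10 genes were called, and 369 over all genes, against 1787 with all samples. Calls fell most when an old sample was dropped, among the 10 and over all genes alike. Dropping old replicate 1 left 0 of the 10 and 5 of all genes called, and dropping old replicate 3 left 0 and 1. Of the 10, 7 and 6 had an unadjusted p below 0.05 in these fits (limma). Dropping old replicate 2 left 1 of the 10 and 18 of all genes, and dropping young replicate 2 left 2 and 34. The low counts among the 10 thus cannot be read as particular to these genes.

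**Figure D1:**
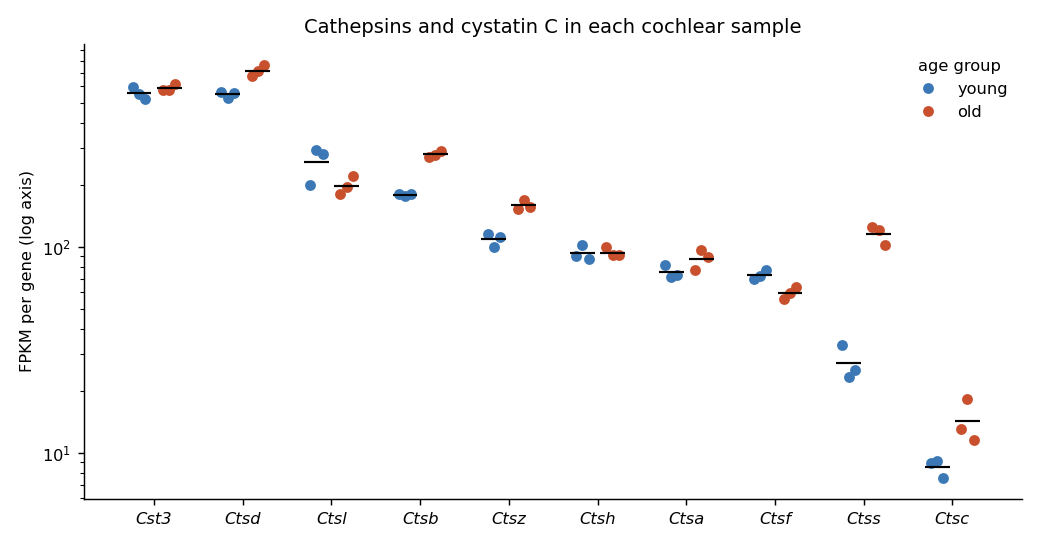
FPKM of each gene (vertical log axis) in the 3 young and 3 old samples; points are samples and black lines are group means. The old samples of Ctss, at 102 to 125 FPKM, sit far above the young ones, at 23.2 to 33.5 FPKM, while those of Cst3 and Ctsh overlap.

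In young mice Cst3 and Ctsd were the most abundant of the 10, with means of 555 and 549.8 FPKM, and their samples overlapped. They were followed by Ctsl, Ctsb, Ctsz, Ctsh, Ctsa and Ctsf, from 258 down to 72.9 FPKM, then by Ctss at 27.3 FPKM and Ctsc at 8.51 FPKM. The neighbours in this order that overlapped were Cst3 and Ctsd, Ctsz and Ctsh, and Ctsa and Ctsf. In old mice Ctsd came before Cst3, Ctsb before Ctsl, and Ctss before Ctsh, each pair without overlap between its samples, and only Ctsh and Ctsa overlapped as neighbours.

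Cathepsin S is a cysteine protease that stays active at neutral pH. The Ctss gene spans bases 95526786 to 95556403 of chromosome 3 (GRCm38, plus strand). It was at 33.5, 23.2 and 25.1 FPKM in young replicates 1, 2 and 3, against 125, 120.5 and 102 FPKM in the old replicates in the same order. The 2 groups were far apart, and replicate 1 was the highest of both. The log2 change was 2.09 (SE 0.15, limma adjusted p = 0.00374). Without young replicate 1 it was 2.25 (limma adjusted p = 0.00667). The change lost the threshold without old replicate 1 (2.04, limma adjusted p = 0.0600) and without old replicate 3 (2.18, limma adjusted p = 0.0508).

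Cathepsins B and Z are cysteine proteases of many tissues, the first also removing dipeptides from the C-terminus of its substrates and the second a carboxypeptidase. Ctsb, on chromosome 14 from 63122462 to 63145923, was at 180.1, 176 and 181 FPKM in the young samples, against 271, 279 and 293 FPKM in the old samples. The young samples differed little from each other, and the lowest old sample was well above them. The log2 change was 0.65 (SE 0.06, limma adjusted p = 0.00576). It was between 0.62 and 0.67 with each sample left out, with 0.65 and a limma adjusted p of 0.0274 without young replicate 1, and lost the threshold without old replicate 1, 2 or 3 (limma adjusted p = 0.0600, 0.0558 and 0.0608). Ctsz, on chromosome 2 from 174427493 to 174439039, was at 115, 99.3 and 112 FPKM in the young samples, against 153, 169 and 156 FPKM in the old samples, which did not overlap. Ctsz differed by 0.55 on the log2 scale (SE 0.08, limma adjusted p = 0.0137). It lost the threshold without young replicate 2 or old replicate 1, 2 or 3 (limma adjusted p = 0.0625, 0.0702, 0.0871 and 0.0637), and also without the filter on low values or without the variance trend (limma adjusted p = 0.0546 and 0.0626). It was 0.60 without young replicate 1 (limma adjusted p = 0.0436).

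Cathepsin D is the main aspartic protease of the lysosome. Ctsd, on chromosome 7 from 142375911 to 142388038, was at 565, 527 and 557 FPKM in the young samples, against 670.1, 712 and 765 FPKM in the old samples. The groups did not overlap, although the distance between them was not much larger than the range within the old group. The log2 change was 0.38 (SE 0.07, limma adjusted p = 0.0263), and it fell to 0.19 under quantile normalization (limma adjusted p = 0.0693). The call was also lost without the filter, without the variance trend and with the replicate number as a block (limma adjusted p = 0.0824, 0.0915 and 0.0601). With each of the 6 samples left out in turn the log2 change was between 0.33 and 0.42, and it did not pass in any of these fits (limma adjusted p = 0.0729, 0.0974 and 0.0528 for the young replicates 1, 2 and 3, and 0.0728, 0.117 and 0.0868 for the old).

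Cathepsin C, or dipeptidyl peptidase I, activates the serine proteases of leukocyte granules. Ctsc, on chromosome 7 from 88278085 to 88310888, was the least abundant of the 10, at 8.94, 9.08 and 7.51 FPKM in the young samples, against 13.1, 18.3 and 11.5 FPKM in the old samples. Each old sample was above the young samples, and old replicate 2 was well above the other old samples. The log2 change of 0.72 (SE 0.18) just missed the threshold (limma adjusted p = 0.0513). It was 0.52 without old replicate 2 and 0.75 without young replicate 1 (limma adjusted p = 0.134 and 0.121). Cathepsin F is a cysteine protease with a long propeptide that resembles a cystatin. Ctsf, on chromosome 19 from 4855130 to 4860918, was at 70.0, 71.9 and 76.8 FPKM in the young samples, against 55.7, 59.4 and 63.5 FPKM in the old samples. The old samples lay below the young samples, and Ctsf was the only gene of the 10 with this order. Its log2 change of -0.29 (SE 0.07) also missed the threshold (limma adjusted p = 0.0514).

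Cathepsin L is a cysteine endopeptidase of most tissues. Ctsl, on chromosome 13 from 64359337 to 64370890, was at 199, 294 and 282 FPKM in the young samples, against 179, 195 and 219.8 FPKM in the old samples. The groups overlapped through young replicate 1, which lay near the old samples. The log2 change was -0.37 (SE 0.15, 95% interval -0.73 to -0.01, limma adjusted p = 0.175), and without young replicate 1 it was -0.54 (limma adjusted p = 0.0614). Cathepsin A forms a complex with the lysosomal enzymes neuraminidase 1 and beta-galactosidase and protects them. Ctsa, on chromosome 2 from 164832873 to 164841032, was at 81.4, 71.6 and 73.1 FPKM in the young samples, against 76.7, 96.7 and 88.7 FPKM in the old samples, with overlap. Its log2 change was 0.21 (95% interval -0.02 to 0.44, limma adjusted p = 0.220). The genes of its partners, named here for this role after their values were seen, had log2 changes of 0.15 for Neu1 and 0.12 for Glb1 (limma adjusted p = 0.385 and 0.486).

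Cathepsin H is a cysteine protease that acts mainly as an aminopeptidase. Ctsh, on chromosome 9 from 90054152 to 90076089, was at 89.8, 101 and 86.9 FPKM in the young samples, against 99.2, 90.9 and 90.7 FPKM in the old samples. The groups lay across each other, with a log2 change of 0.02 (95% interval -0.17 to 0.20, limma adjusted p = 0.912). Its sign changed under quantile normalization and when single samples were left out. Cst3, on chromosome 2 from 148871722 to 148875692 on the minus strand, was at 593, 552 and 521 FPKM in the young samples, against 578, 575 and 614 FPKM in the old samples. The samples of both groups overlapped, and the log2 change of 0.09 (SE 0.07, limma adjusted p = 0.468) had a 95% interval of -0.08 to 0.25. It was -0.09 under quantile normalization. A change of cystatin C of the size seen for Ctsb thus lay outside the interval.

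**Figure D2:**
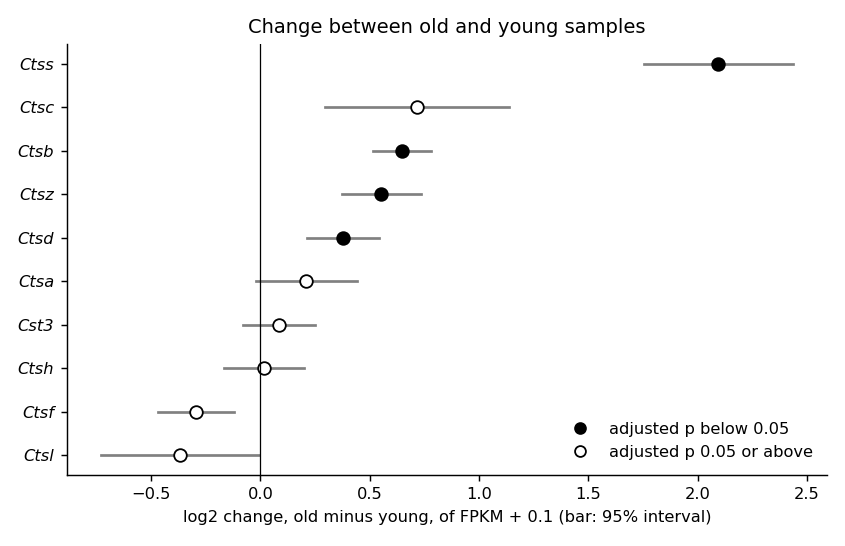
Log2 change of each gene, old minus young, on the scale of log2(FPKM + 0.1); bars are 95% intervals from limma and filled points passed the threshold of 0.05. The changes run from -0.37 for Ctsl to 2.09 for Ctss, with Cst3 at 0.09.

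The levels of the cathepsins were also set against that of Cst3 within each sample, which does not depend on the scaling between libraries. The summed level of the 9 cathepsins was 1343, 1373 and 1402 FPKM in young replicates 1, 2 and 3 and 1644, 1739.9 and 1789 FPKM in the old ones. This was 2.26, 2.49 and 2.69 times the Cst3 level in the young samples and 2.84, 3.03 and 2.92 times in the old samples. The sum includes Ctsd and Ctsa, whose products cystatin C does not inhibit, so that these RNA ratios are not a balance of protease and inhibitor. The sum was higher in every old sample also when Ctss was left out, at 1309 to 1376 FPKM in young and 1519 to 1687 FPKM in old mice. Of the 9 single ratios to Cst3, 6 did not overlap between the groups, against 31.3% of all genes tested. The ratios of Ctss, Ctsb, Ctsc, Ctsd and Ctsz were higher in every old sample (11.2% of all genes tested) and that of Ctsf was lower (20.1%). Each of these 6 had an exact two-sided permutation p of 0.1, the smallest that 3 samples against 3 allow, and 0.15 adjusted over the 9 ratios, so that none could pass. The Ctss to Cst3 ratio was 0.0489 ± 0.00722 (SD, n = 3) in young and 0.197 ± 0.0269 in old mice, and the Ctsd to Cst3 ratio was 0.993 ± 0.0669 and 1.21 ± 0.0482.

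The make-up of the summed cathepsin level was described by shares. Ctsd made up the largest share of the summed FPKM of the 9 in every sample, with 40.1% ± 1.86 (SD, n = 3) in young and 41.5% ± 1.09 in old mice, which overlapped. Ctss went from 1.99% ± 0.437 to 6.74% ± 0.956 and Ctsb from 13.0% ± 0.322 to 16.3% ± 0.260. Ctsl went from 18.8% ± 3.48 to 11.5% ± 0.722 and Ctsf from 5.31% ± 0.148 to 3.45% ± 0.0888. The groups did not overlap for these 4 genes, nor for Ctsz, which was higher, and Ctsh, which was lower. The summed level itself was 1.26-fold higher in old mice, so that a gene whose own level overlapped, such as Ctsh, can have a lower share through the sum alone. How many of all genes would separate after the same division was not counted. Shares of a sum depend on each other, and they were not tested.

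The table gives 23 transcripts for the 10 genes, of which 21 passed the filter on low values. Ctsb, Ctsf, Ctsl and Ctsz had 1 transcript each, so that their gene and transcript values are the same. In the test over all 38764 transcripts, 3 of the 21 were higher in old mice, ENSMUST00000006235 of Ctsb, ENSMUST00000016400 of Ctsz and ENSMUST00000116304 of Ctss (limma adjusted p = 0.0253, 0.0436 and 0.0253), and 0 were lower. Over all transcripts, 0.549% were called higher and 0.748% in either direction. Without adjustment, 8 of the 21 were higher and 2 lower at a p below 0.05. The share of all transcripts at an unadjusted p below 0.05 was not counted, here or in the other fits. With all samples kept, 1 passed without the filter, 1 without the variance trend and 0 with the replicate number as a block (10 at an unadjusted p below 0.05, limma). With any 1 of the 6 samples left out, 0 of the 21 passed, and 8 to 13 had an unadjusted p below 0.05 (limma). How many of all transcripts passed in these fits is not given, so that the 0 cannot be read as particular to these genes.

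The transcripts of Ctss, ENSMUST00000116304 and ENSMUST00000015667, have the same length of 1355 nt and the same start, so that the split of reads between them is uncertain. Both were higher in all old samples, and the first held 90.2% of the gene's FPKM in young and 92.6% in old mice on average. The gene total does not depend on this split. For Ctsc, the transcript with 7 exons, ENSMUST00000032779, went from 6.38, 5.45 and 5.41 FPKM in the young samples to 11.4, 15.5 and 8.66 FPKM in the old samples. Its log2 change was 0.99 (SE 0.22, limma adjusted p = 0.0878). The transcript with 4 exons, ENSMUST00000131108, was at 2.76 ± 0.781 FPKM (SD, n = 3) in young and 2.44 ± 0.652 FPKM in old mice, with overlap between the groups.

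For Ctsh, the values of single transcripts lay further apart between the ages than their sum. ENSMUST00000034915, with 12 exons and 1617 nt, was at 76.6, 73.9 and 68.7 FPKM in the young samples, against 84.5, 89.5 and 83.7 FPKM in the old samples. All old samples were higher, by 0.23 on the log2 scale (SE 0.07), but did not pass (limma adjusted p = 0.144). ENSMUST00000132718, with 8 exons and 631 nt, was at 11.6, 26.8 and 16.5 FPKM in the young samples, against 14, 0.00125 and 4.27 FPKM in the old samples. It varied strongly within the old group, and the groups overlapped. A single transcript held 98.4% of the FPKM of Cst3 in young and 98.3% in old mice on average, and for Ctsd 99.5% and 99.4%.

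**Figure D3:**
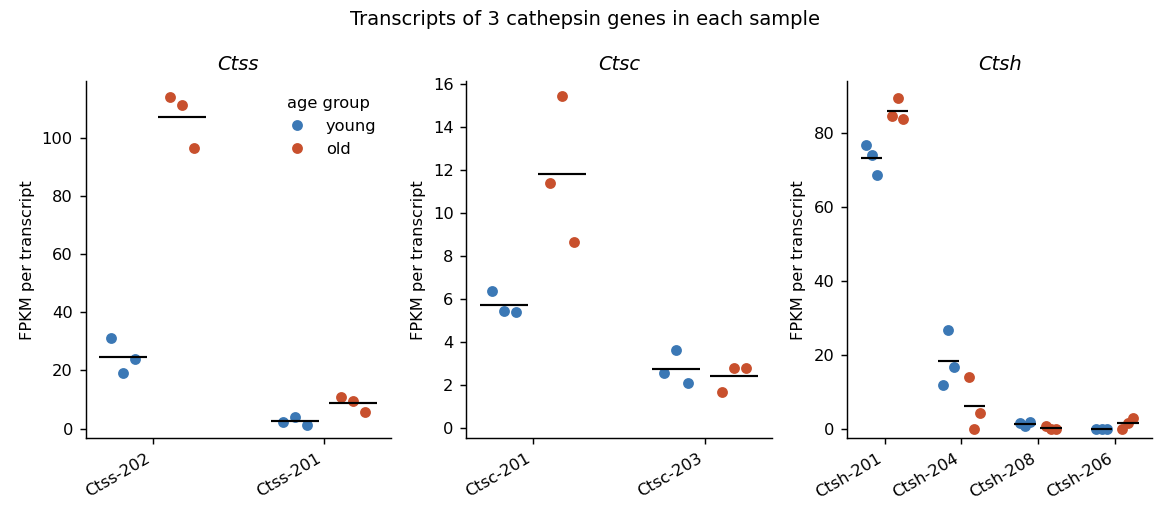
FPKM per transcript of Ctss, Ctsc and Ctsh (vertical axes, separate scales) in young and old samples for the transcripts that passed the filter; points are samples and black lines are group means. The main transcript lies higher in all old samples for each gene, while the second Ctsc transcript does not.

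The windows around the annotated starts of the genes were searched for motifs tied to lysosomal and myeloid genes. RefSeq windows of GRCm38.p6, from 250 bases before to 50 bases after a start, were matched for 8 of the 10 genes, all but Ctsb and Ctsh, with 2 windows for Ctsa. The E-box CACGTG, which reads the same on both strands and is bound by TFEB, TFE3 and MITF, was in a window of 4 of the 8 genes, Ctsa, Ctsd, Ctsf and Ctsl, and in 7.15% of all 32851 windows. Its longer form, the E-box with GT before and AC after it, is known from lysosomal genes under TFEB and was in 0 of the 9 windows and in 0.326% of all. Only these exact letters were searched, so that forms with a differing letter were not counted. GAGGAAGT, a motif of the myeloid factor PU.1, was found on either strand for Ctss and Ctsc, and in 3.20% of all windows. GGGCGG, the GC box of SP1, was found on either strand for 6 of the 8 genes and in 35.7% of all windows. Of the 4 genes with an E-box, Ctsd rose, and Ctsa, Ctsf and Ctsl did not pass the test. For Ctsa the E-boxes were only in the window further downstream. The other Ctsa window, from 164832622 to 164832921, had none of the motifs. It holds the start of ENSMUST00000103093, the transcript with 65.9% of the FPKM of Ctsa in young and 66.4% in old mice on average. A match of letters is not a bound site. The windows of Ctss and Ctsc are shown for the PU.1 motif, that of Ctsd and the downstream one of Ctsa for the E-boxes, and that of Cst3 as the inhibitor whose level did not pass the test. Each is printed from 5′ to 3′ on the gene's strand, with all matches of the motifs in capitals.
Ctss, chr3:95526536-95526835, plus strand: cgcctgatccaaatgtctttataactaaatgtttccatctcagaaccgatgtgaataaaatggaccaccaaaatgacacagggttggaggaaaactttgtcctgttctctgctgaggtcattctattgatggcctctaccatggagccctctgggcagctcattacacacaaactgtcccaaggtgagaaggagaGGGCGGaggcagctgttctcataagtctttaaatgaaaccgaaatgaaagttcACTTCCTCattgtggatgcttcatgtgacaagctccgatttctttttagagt
Ctsc, chr7:88277835-88278134, plus strand: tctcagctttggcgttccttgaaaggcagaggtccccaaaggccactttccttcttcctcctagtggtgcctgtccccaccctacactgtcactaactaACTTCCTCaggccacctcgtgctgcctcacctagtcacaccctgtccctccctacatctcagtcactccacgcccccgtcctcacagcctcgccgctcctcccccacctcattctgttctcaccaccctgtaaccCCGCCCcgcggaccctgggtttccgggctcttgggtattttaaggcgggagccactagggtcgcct
Ctsd, chr7:142387778-142388077, minus strand: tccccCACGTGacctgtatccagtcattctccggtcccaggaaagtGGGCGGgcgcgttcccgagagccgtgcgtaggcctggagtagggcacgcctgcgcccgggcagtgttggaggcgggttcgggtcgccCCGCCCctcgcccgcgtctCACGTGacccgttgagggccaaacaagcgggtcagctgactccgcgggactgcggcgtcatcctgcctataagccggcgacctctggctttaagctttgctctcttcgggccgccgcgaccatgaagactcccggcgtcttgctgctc
Ctsa, chr2:164833523-164833822, plus strand: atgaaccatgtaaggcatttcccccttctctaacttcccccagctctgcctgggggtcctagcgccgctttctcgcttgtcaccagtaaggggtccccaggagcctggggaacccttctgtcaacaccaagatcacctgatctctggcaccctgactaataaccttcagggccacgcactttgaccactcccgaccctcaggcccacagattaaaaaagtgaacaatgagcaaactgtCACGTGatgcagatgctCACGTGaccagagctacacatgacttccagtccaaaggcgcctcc
Cst3, chr2:148875463-148875762, minus strand: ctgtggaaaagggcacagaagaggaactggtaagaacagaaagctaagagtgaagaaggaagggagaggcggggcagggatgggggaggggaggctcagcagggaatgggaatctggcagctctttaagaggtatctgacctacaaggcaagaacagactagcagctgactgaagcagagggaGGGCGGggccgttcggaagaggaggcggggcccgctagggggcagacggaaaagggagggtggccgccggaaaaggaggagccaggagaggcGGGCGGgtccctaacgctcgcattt

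Genes of the same pathway were described from lists, by how many passed the test. The lists were drawn up with earlier results of these data known. Over all genes tested, 5.41% were called higher and 3.68% lower, and these shares apply to each list below. Of 6 other cathepsin and cathepsin-like genes that were tested, 0 passed with limma (1, Ctso, higher and 0 lower at an unadjusted p below 0.05). The most abundant were Tinagl1, which lacks protease activity, at 34.7 and 33.9 FPKM in young and old mice, Ctsk, the cathepsin of osteoclasts, at 21.1 and 17.1 FPKM, and Ctso at 10.1 and 12.5 FPKM. A further 9 of the 16 genes of this list were listed at 0 in every sample. Of 11 other inhibitors tested, 3 were higher and 0 lower (4 and 1 at an unadjusted p below 0.05), and without young replicate 1 these were 2 and 0. Cst6, the gene of cystatin E/M, rose from 4.35 ± 0.205 to 8.82 ± 0.469 FPKM (SD, n = 3, log2 change 1.00, limma adjusted p = 0.0116). Cst7 and Ctla2b, named after their values were seen, were the other inhibitors called higher. Cst7, the gene of cystatin F of immune cells, was listed at 0 in young replicates 2 and 3 and at 0.324 FPKM in young replicate 1, and was at 1.61, 2.54 and 1.38 FPKM in the old samples (limma adjusted p = 0.0240). Ctla2b, whose product resembles a cathepsin propeptide, rose from 1.95 ± 0.536 to 4.49 ± 0.775 FPKM (limma adjusted p = 0.0297). Cstb, the intracellular inhibitor cystatin B, was the most abundant of the list at 99.7 ± 8.97 FPKM in young and 124 ± 12.5 FPKM in old mice (limma adjusted p = 0.0950), and Ctla2a was at 16.5 and 15.0 FPKM.

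Among lysosomal hydrolases and their activators, 13 of 38 genes were higher in old mice and 0 lower (20 and 0 at an unadjusted p below 0.05), with a median log2 change of 0.22. Without young replicate 1 only 1 of the 38 was called, while 20 were higher at an unadjusted p below 0.05 and the median was 0.23. Calls also fell over all genes in that fit, from 1787 to 369. Psap, which encodes the saposins, was the most abundant at 747 ± 19.1 and 785 ± 23.1 FPKM and did not pass (limma adjusted p = 0.482). Cpq, a carboxypeptidase, rose from 87.3 ± 5.62 to 114 ± 8.56 FPKM, and Hexa, a subunit of beta-hexosaminidase, rose from 81.7 ± 5.31 to 106 ± 4.80 FPKM (limma adjusted p = 0.0315 and 0.0273). Among genes of the lysosomal membrane, of sorting and of regulation, 5 of 34 were higher and 1 lower (9 and 3 at an unadjusted p below 0.05), with a median of 0.09. Without young replicate 1 these were 1 and 0 (9 and 4 at an unadjusted p below 0.05, limma). With all samples, 13.4% of the genes at least as abundant as Ctsc were called in either direction, and 8.54% as higher. Lamp1, a main protein of the lysosomal membrane, rose from 345 ± 22.3 to 457 ± 12.3 FPKM, and Laptm4a rose from 329 ± 0.972 to 415 ± 14.9 FPKM (limma adjusted p = 0.0211 and 0.0214). Cd63 was at 234 ± 26.3 and 298 ± 12.4 FPKM (limma adjusted p = 0.0507). M6pr, Tfeb and Tfe3 were named for their roles after their values were seen. M6pr, the cation-dependent mannose-6-phosphate receptor, rose from 67.0 to 86.8 FPKM (limma adjusted p = 0.0186). Tfeb and Tfe3, transcription factors of lysosomal genes, were at 16.8 and 6.77 FPKM in young and 15.7 and 6.38 FPKM in old mice (limma adjusted p = 0.589 and 0.723). The other called genes of this list, also named after their values were seen, were Scarb2 and Gnptg, at log2 changes of 0.28 and 0.38 (limma adjusted p = 0.0346 and 0.0365), and the 1 lower gene Atp6v1b2, a subunit of the proton pump that acidifies lysosomes, which fell from 79.5 ± 11.8 to 53.9 ± 1.80 FPKM (limma adjusted p = 0.0270).

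Of 9 genes around the invariant chain and antigen processing in lysosomes, 6 were higher and 0 lower (6 and 0 at an unadjusted p below 0.05), with a median log2 change of 1.63. The counts were the same without young replicate 1, with a median of 1.55. Cd74, the invariant chain that cathepsin S cuts, was at 12.5, 5.22 and 9.49 FPKM in the young samples, against 42.1, 46.0 and 31.1 FPKM in the old samples. The groups did not overlap, and the log2 change of 2.19 (SE 0.30, limma adjusted p = 0.0139) lay within the 95% interval of Ctss, 1.75 to 2.44. The other called genes of the list, named after their values were seen, lay outside this interval. H2-Ab1, H2-Aa and H2-Eb1 lay above it, at 3.02, 2.96 and 2.81, and H2-DMa and H2-DMb1 below it, at 1.63 and 0.86. Lgmn, a lysosomal protease that processes several cathepsins, was at 66.0 ± 4.43 and 73.7 ± 5.67 FPKM, and Ifi30, a lysosomal thiol reductase, at 51.7 ± 3.55 and 59.4 ± 14.3 FPKM, and neither passed (limma adjusted p = 0.261 and 0.514).

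**Figure D4:**
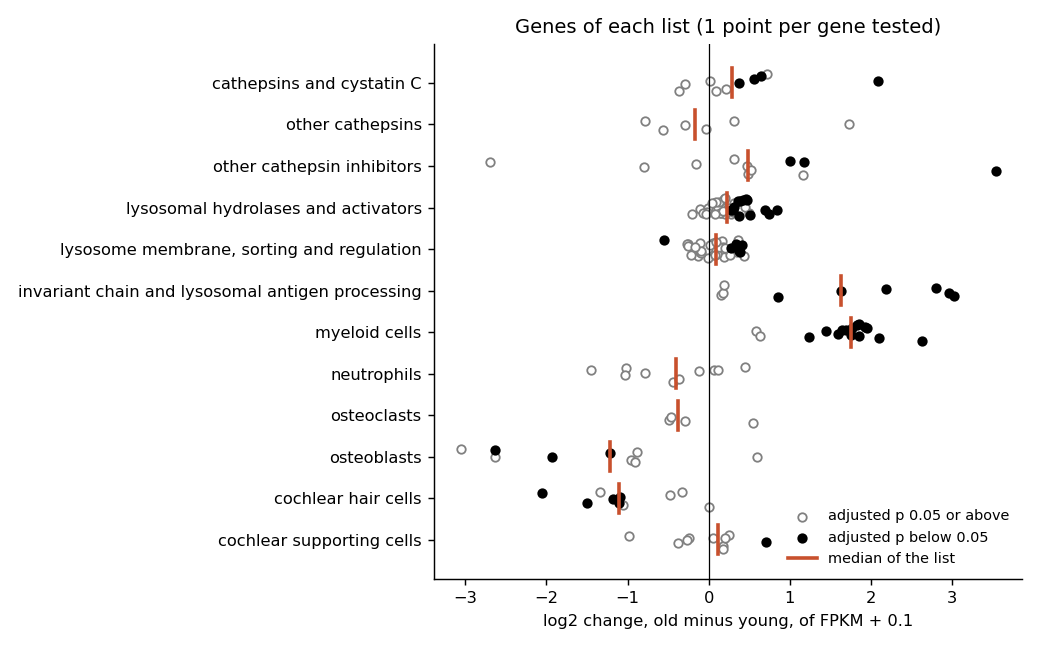
Log2 change, old minus young, of every tested gene of each list (1 point per gene, vertical jitter only for display); filled points passed the threshold of 0.05 and red lines are the list medians. The median was 0.29 for the cathepsins and Cst3, 0.22 for the hydrolases and 1.76 for the myeloid markers.

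Markers of myeloid cells were higher in old mice along with Ctss. Of 16 such markers 14 rose and 0 fell (15 and 0 at an unadjusted p below 0.05), with a median log2 change of 1.76, and none was at 0 in any sample. Those that did not pass were Mrc1 and Cx3cr1, at 0.59 and 0.63 (limma adjusted p = 0.0677 and 0.190). When young replicate 1 was left out, 10 of the 16 were called higher, with a median of 2.01, while calls over all genes fell from 1787 to 369. Lyz2, C1qa and C1qb were the most abundant, with log2 changes of 2.64, 1.93 and 1.77. The log2 change of Ctss was exceeded by that of 2 markers, Lyz2 and Aif1, and 7 of the 16 lay within its 95% interval. The changes of the other 9 cathepsin and cystatin genes were smaller than those of 14 of the 16 markers. The summed level of the markers was 249, 152 and 176 FPKM in young replicates 1, 2 and 3 and 883, 866 and 802 FPKM in old replicates 1, 2 and 3. The part of these markers in the change of any cathepsin was not tested.

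The level of each gene was divided by this sum within a sample, a ratio chosen after the values were seen. For Ctss it was 0.135, 0.152 and 0.142 in the young samples and 0.141, 0.139 and 0.127 in the old samples, so that the groups overlapped. For the other 9 genes every old sample lay below every young sample. The sum itself was 4.42-fold higher in old mice, so that a gene that rose less is lower in this ratio by construction. How many of all genes do so was not counted. The ratio of the old to the young mean was 0.364 for Ctsc, 0.342 for Ctsb, 0.322 for Ctsz and 0.285 for Ctsd, and it was lowest for Ctsl at 0.162. Lyz2 contributed much of the sum. Without it the Ctss ratio was 0.207, 0.254 and 0.236 in the young samples and 0.335, 0.258 and 0.282 in the old samples, which no longer overlapped, while the other 9 genes were again lower in every old sample. The sum without Lyz2 was 3.34-fold higher in old mice, so that the same limit holds.

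**Figure D5:**
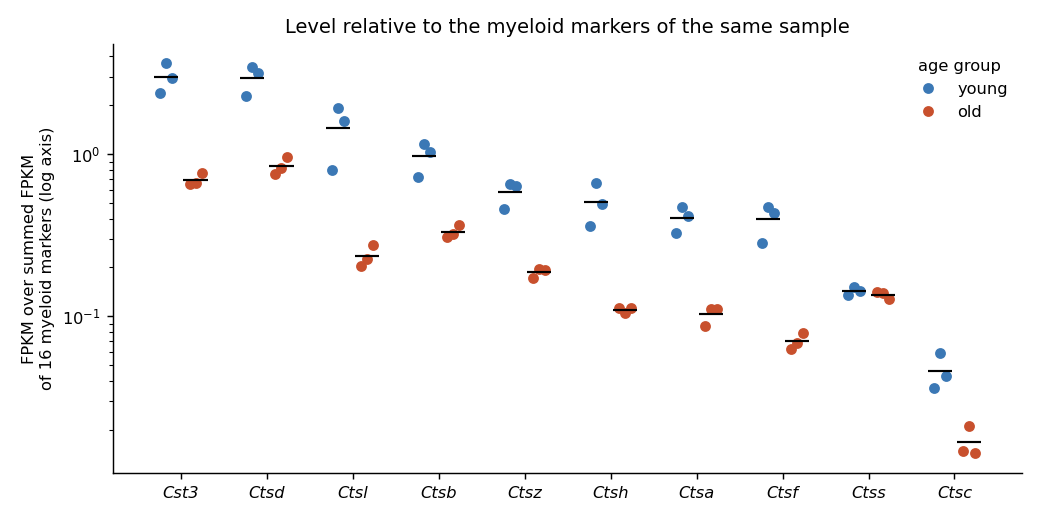
FPKM of each gene divided by the summed FPKM of 16 myeloid markers in the same sample (vertical log axis); points are samples and black lines are group means. Only Ctss overlaps between young (0.135 to 0.152) and old (0.127 to 0.141) samples with this sum. The sum was 4.42-fold higher in old mice, so that a gene that rose less is lower in the ratio by construction.

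Markers of other cell types were counted in the same way. For neutrophils, whose granule proteases are activated by cathepsin C, 0 of 10 genes passed with limma in either direction (0 at an unadjusted p below 0.05), and their summed level lay between 12.2 and 445 FPKM in young and between 15.1 and 86.1 FPKM in old mice. Their most abundant genes were S100a8, S100a9 and Ltf. For osteoclasts 0 of 4 tested genes passed (0 at an unadjusted p below 0.05), with sums of 19.6 to 29.7 and 19.5 to 19.8 FPKM, led by Ctsk, Acp5 and Mmp9. For osteoblasts 3 of 9 were lower and 0 higher (8 lower and 1 higher at an unadjusted p below 0.05), with sums of 142 to 429.9 FPKM in young and 84.0 to 102 FPKM in old mice. The lower genes were Col1a2, Ibsp and Sp7, and Bglap2 and Bglap were among the most abundant. For hair cells 5 of 10 were lower and 0 higher (8 and 0 at an unadjusted p below 0.05), namely Calb2, Ocm, Slc26a5, Chrna9 and Gfi1, while Otof did not pass. For supporting cells 1 of 10, Otog, was higher and 0 lower (2 and 3 at an unadjusted p below 0.05), and Gjb6, Gjb2 and Epyc did not pass. The called genes that are not among the most abundant of their list were named after their values were seen. Without young replicate 1, 1 osteoblast gene was lower, and 0 hair cell, supporting cell, neutrophil and osteoclast genes passed with limma (8, 3, 1 and 0 at an unadjusted p below 0.05). Calls over all genes fell from 1787 to 369 in that fit. The median log2 change of the neutrophil genes was -0.40 with young replicate 1 and 0.88 without it. The part of these cell types in the values of the cathepsins was not tested.

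The genes whose pattern over the 6 samples was most like that of Ctss were sought among 15064 genes with a mean of at least 1 FPKM. The measure was the root mean square difference between log2 profiles, each centred on its young mean. The 5 nearest were Mpeg1, a pore-forming protein of macrophages, the authors' transcript LNC_000648, C1qc and C1qa, chains of complement C1q, and Ly9, a receptor of leukocytes, at differences of 0.17 to 0.23. Mpeg1 was at 3.17 ± 1.00 FPKM (SD, n = 3) in young and 13.1 ± 2.27 FPKM in old mice. For Cst3 the 5 nearest were Ddx42, Sc5d, Tars, Cspg4 and Ldha, at differences of 0.03, and their log2 changes lay between 0.06 and 0.10. These genes were chosen for their likeness, so that their levels are a description.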

How the data were processed

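Cochlear RNA of 3 young and 3 old pools was sequenced. The authors mapped filtered reads to GRCm38, used Cufflinks (version 2.1.1) for transcript assembly and computed FPKM per transcript with Cuffdiff (version 2.1.1), and the deposited FPKM values were used without further scaling. The submitters' processing notes also name TopHat2 (version 2.0.9). The annotation release is not given in the sources used here. The table holds 56671 transcripts. Its Ensembl transcripts were matched to GENCODE release M21, and 404 of them that were not matched, like the 992 lncRNAs of the authors, were kept as single units. FPKM were summed per gene.

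The age groups were set against each other in limma 3.58.1 under R 4.3.3 (lmFit, then eBayes with trend), on log2(FPKM + 0.1). Genes entered at a mean of 0.1 FPKM or more, and age was the single term of the model. The pseudocount understates changes of low genes. Cuffdiff, the test of the study, needs reads, which were not used here. Simulated tables with known changes were used to test the scripts. Python 3.11.15, scipy 1.17.1 and matplotlib 3.10.9 were used for the ratios and plots. The number of fragments per sample was inferred from the spacing of low FPKM values. Multiples of a depth also fit this spacing, so that the best fit below a set upper limit was taken.

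The genes and lists were chosen with earlier results of these data known. Named genes are the 10 genes, the 3 most abundant of each list, and the 5 genes most like Ctss and Cst3 in pattern, and others are marked as chosen after their values were seen. The pseudocount, filter, scaling, variance trend, sample weights, a replicate block and each sample left out were varied. The counts of the lists without young replicate 1 were added after seeing the data.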

Additional observations from a re-analysis of the deposited data

How the results depend on the processing

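Of the 10 genes 4 were called, and 2 were without a filter on low values or without the variance trend. With each sample left out 0 to 3 were called, with 6 or 7 at an unadjusted p below 0.05 (limma). How many of all genes had such an unadjusted p was not counted. Over all genes, 1787 were called, against 307 without a filter, 392 without the trend, 675 with the replicate block, and 1 to 1393 with each sample left out. Of the transcripts of the 10 genes 3 were called, against 1 without a filter and 1 without the trend, and 0 to 0 with each sample left out. With the replicate block 0 of these transcripts were called (10 at an unadjusted p below 0.05, limma), and 3 of the 10 genes, since Ctsd did not pass (limma adjusted p = 0.0601). The labels tie no number to a shared litter or day, the deviations of same-numbered samples had correlations of -0.04 to 0.02, and the block changed no other call of the 10 genes. The cause of these changes was not tested.

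Under quantile normalization the log2 changes of Ctsh and Cst3 were -0.0500 and -0.0905, against 0.02 and 0.09. With single samples left out Ctsh lay between -0.0281 and 0.0829. Ctsd lost the threshold under 4 of the 10 alternatives that keep all samples and Ctsz under 2 of them, while Ctss and Ctsb kept it under all 10. Ctsc passed under 3 and Ctsf under 4 of them. The log2 change of Ctss was between 1.99 and 2.25 over all settings. The 6 ratios to Cst3 that did not overlap were 6 with either pseudocount and 6 or 7 with each sample left out. Because read counts were not used, the counting error of single values is not given.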
